A study of Mus musculus with 16 samples.

Results

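The Hox genes encode homeodomain transcription factors that lie in 4 genomic clusters, Hoxa, Hoxb, Hoxc and Hoxd. Genes of the array table whose symbol is Hox, a cluster letter and a number were taken, which gave 39 of 18138 gene symbols, with 53 of 25697 probes. These 39 genes were matched to RefSeq on GRCm38.p6. The probe with the highest mean signal stood for a gene where it had several, as 10 genes did.

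RNA was measured in 16 samples of fallopian tubes from immature female C57BL/6N mice, 3.5 to 5 weeks old, that had received no hormones. The whole tubes were opened, cut in pieces and kept in G-MOPS handling medium for 20 min or 2 h, with 100 nmol/L progesterone (4 samples at each time) or with the ethanol vehicle alone (4 controls at each time). Ethanol was at 0.01% in the medium. Each sample was a pool of 6 tubes, and a code (27n, 26n, 12n or 22ob at 20 min and 6d, 19n, 30o or 15o at 2 h) tied each control to its progesterone sample. No pair spans both times, so time, the pools of animals and any difference between array runs cannot be told apart, and n is the number of pools throughout.

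Within each cluster the genes are numbered in paralog groups from the 3′ to the 5′ end. Their order along the chromosome follows the order in which they are used along the body axis, and low-numbered genes act towards the head and high-numbered genes towards the tail. In the female tract the posterior genes Hoxa9, Hoxa10, Hoxa11 and Hoxa13 mark the oviduct, the uterus, the lower uterus and cervix, and the upper vagina of the developing Müllerian duct in turn. Hox proteins bind DNA with the cofactors of the Pbx, Meis and Pknox families, and the clusters are kept open or silent by trithorax and Polycomb complexes and respond to retinoic acid in the embryo.

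The clusters span 105.5 kb on chromosome 6 (Hoxa, chr6:52155367-52260880), 173.9 kb on chromosome 11 (Hoxb, chr11:96194316-96368254), 115.7 kb on chromosome 15 (Hoxc, chr15:102921131-103036856) and 96.9 kb on chromosome 2 (Hoxd, chr2:74668225-74765142) in GRCm38.p6. Gene loci overlap within them. The RefSeq locus of Hoxa3 (chr6:52169059-52213067) covers Hoxa4, Hoxa5 and Hoxa6, that of Hoxb3 (chr11:96307101-96347930) covers Hoxb4, and that of Hoxd3 (chr2:74711993-74748271) covers Hoxd4. Probe positions and sequences were not used here, so a signal could not be tied to one of 2 overlapping transcripts, nor a probe checked against paralogs.

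The 250 bases before the RefSeq start are shown for 3 genes whose signal was lower at 2 h than at 20 min, Hoxa5, Hoxa7 and Hoxd8, and for Hoxb4, which differed most between pools at 20 min. Each is given 5′ to 3′ on the strand of its gene, from RefSeq in GRCm38.p6. Capitals mark matches, on either strand, to AGAACA (the hexamer that the progesterone receptor binds), to AGGTCA (the hexamer of retinoid receptors), to the box named CCAAT, to the GC box spelled GGGCGG, or to the TATA box spelled TATAAA.
Hoxa5, chr6:52204588-52204837, minus strand: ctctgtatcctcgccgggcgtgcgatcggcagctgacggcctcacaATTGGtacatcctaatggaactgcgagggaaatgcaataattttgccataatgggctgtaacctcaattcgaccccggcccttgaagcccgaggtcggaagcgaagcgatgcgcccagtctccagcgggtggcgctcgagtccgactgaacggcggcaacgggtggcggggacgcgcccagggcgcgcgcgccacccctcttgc
Hoxa7, chr6:52218574-52218823, minus strand: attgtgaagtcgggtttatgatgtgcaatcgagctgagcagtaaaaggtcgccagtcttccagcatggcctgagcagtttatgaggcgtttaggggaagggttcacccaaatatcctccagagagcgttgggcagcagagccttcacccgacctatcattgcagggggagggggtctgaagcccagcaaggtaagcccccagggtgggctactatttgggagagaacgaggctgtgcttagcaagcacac
Hoxd8, chr2:74704365-74704614, plus strand: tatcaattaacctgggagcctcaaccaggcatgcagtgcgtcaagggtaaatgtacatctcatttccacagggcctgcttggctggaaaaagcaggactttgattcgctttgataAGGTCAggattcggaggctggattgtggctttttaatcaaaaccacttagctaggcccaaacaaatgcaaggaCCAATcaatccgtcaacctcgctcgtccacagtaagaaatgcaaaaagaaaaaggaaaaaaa
Hoxb4, chr11:96318017-96318266, plus strand: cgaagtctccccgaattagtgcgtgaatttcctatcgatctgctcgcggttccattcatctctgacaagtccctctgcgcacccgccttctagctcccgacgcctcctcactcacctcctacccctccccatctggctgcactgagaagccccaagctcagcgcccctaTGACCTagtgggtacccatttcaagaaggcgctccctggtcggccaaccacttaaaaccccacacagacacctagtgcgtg
The Hoxa5 window held an inverted CCAAT, Hoxd8 held AGGTCA and CCAAT, Hoxb4 held an inverted AGGTCA, and Hoxa7 held none of the 5 motifs. AGAACA was in none of these 4 windows. Over 24 Hox windows of 22 genes it was found in 2 (Hoxa9 and Hoxa11), against 16.1% of 32851 promoter windows in the table. AGGTCA was in 6 of the 24 windows against 14% of all windows, CCAAT in 14 against 33.8%, GGGCGG in 10 against 32.7%, and TATAAA in 4 against 12.4%. The median of the Hox windows was 58.6% G and C, against 52.4% over the table, and Hoxa5 had 63.6% with 28 CG dinucleotides where Hoxd8 had 44.4% with 6. RefSeq windows for Hoxc6 and Hoxc9 were not used here.

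A gene was called detected on an array where its detection p, the share of negative control probes brighter than the probe, was under 0.05. By this measure 13 of the 39 Hox genes were detected on all 16 arrays, 11 on none and 15 on some. Over all gene symbols, 46.7% were detected on all arrays and 27.3% on none. The 13 genes were Hoxa5, Hoxa7, Hoxa13, Hoxb2, Hoxb4, Hoxb5, Hoxb6, Hoxb7, Hoxc6, Hoxc9, Hoxd3, Hoxd4 and Hoxd8.

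Detection was uneven along the clusters. Among paralog groups 4 to 8 it reached all 16 arrays for 9 of 15 genes, against 2 of 8 in groups 1 to 3 and 2 of 16 in groups 9 to 13. In Hoxb a run of 4 neighbours, Hoxb4 to Hoxb7, was detected on every array and Hoxb8, Hoxb9 and Hoxb13 on none. In Hoxd, Hoxd3, Hoxd4 and Hoxd8 were detected on all arrays, Hoxd9 on 13, Hoxd10 on 15, Hoxd11 on 5 and both Hoxd12 and Hoxd13 on 0. In Hoxc, Hoxc6 and Hoxc9 were detected on all 16 arrays, but Hoxc5 on 0 and Hoxc8 on 4. The genes not detected on any array were Hoxa10, Hoxb1, Hoxb8, Hoxb9, Hoxb13, Hoxc5, Hoxc11, Hoxc12, Hoxd1, Hoxd12 and Hoxd13.

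**Figure D1:**
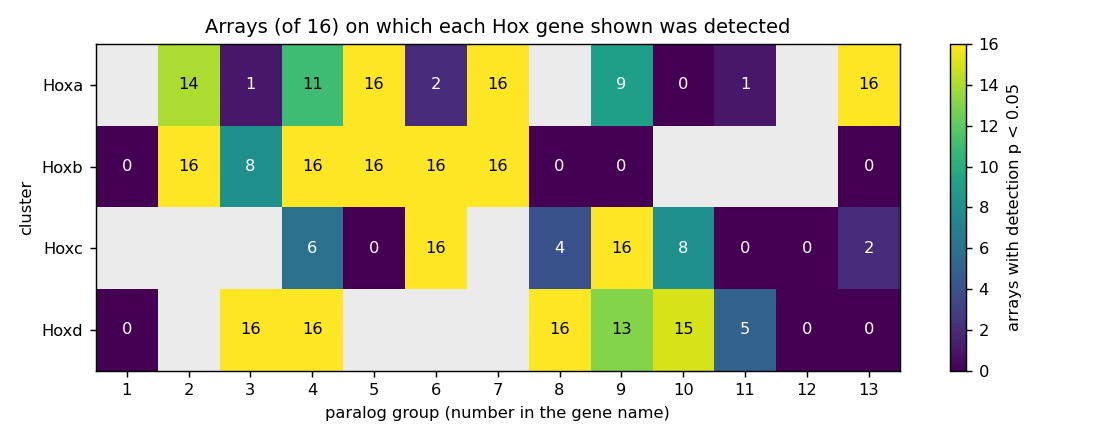
Number of the 16 arrays on which each Hox gene was detected (detection p under 0.05), by cluster (rows) and paralog group (columns); grey cells have no gene or none reported here. Hoxb4 to Hoxb7 form a run at 16 and Hoxd12 and Hoxd13 are at 0.

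Of the posterior genes that mark the parts of the female tract, Hoxa9 was detected on 9 arrays (4 of 4 controls and 3 of 4 progesterone samples of 20 min, 0 of 4 controls and 2 of 4 progesterone samples of 2 h). Hoxa10 was detected on 0 arrays with both of its probes and Hoxa11 on 1. Hoxa13 was detected on 16 arrays with 1 probe, with log2 signals from 7.14 to 7.55, and on 0 arrays with each of its other 2 probes, so its detection rests on a single probe. A probe that was not detected limits only what this probe could show.

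Among the genes of the head end, Hoxb2 was detected on every array (8.89 to 9.63), Hoxa2 on 14, Hoxa3 on 1, and Hoxb1 and Hoxd1 on 0. Hoxb3 was detected on 8. The remaining genes were Hoxa4 (11 arrays), Hoxa6 (2), Hoxc4 (6), Hoxc10 (8) and Hoxc13 (2). For tests, 25 Hox genes passed the filter of a detection p under 0.5 on at least 13 arrays. The 14 others had no test.

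The tissue and its other cells were checked with marker genes. All 6 markers of secretory epithelium on the array (among them Ovgp1 and Pax8) and all 7 of ciliated cells (among them Foxj1) were detected on all 16 arrays. No marker of ovary, fat or skeletal muscle was detected on all arrays, but Zp3 of the ovary list was detected on 15 and Cfd of the fat list on 12. The fat score was 0.78 in the 2 h progesterone sample of 15o, 0.45 in the 20 min progesterone sample of 27n and 0.30 in the 2 h control of 30o, and between -0.28 and 0.06 in the others. A score is the mean over a marker list of the log2 signal less its mean over 16 arrays. The array medians of the deposited signal ranged from 116.5 to 160.5, and 13222 to 14267 probes were detected on an array.

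The first comparison asks how Hox signals stood after 2 h in medium against 20 min, in the controls and, apart from them, in the progesterone samples. In both, a small group of trunk genes had lower signals at 2 h: Hoxa5 was 2.95-fold lower in the controls and 3.29-fold lower in the progesterone samples, Hoxc6 2.55-fold and 2.93-fold, and Hoxa7 2.15-fold and 2.2-fold. Hoxc9 was 1.84-fold lower in the progesterone samples. No Hox gene passed the test as higher at 2 h, where 6.01% of all probes did in the controls and 7.19% in the progesterone samples. The controls and progesterone samples of a time are tied by their codes, so the comparisons in these arms are not independent. A difference between the pairs of 20 min and those of 2 h could show in both.

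In the controls 4 of the 25 Hox genes passed limma's test at an adjusted p of 0.05, and the 4 were lower at 2 h. Over all 16848 probes tested, 11.3% passed and 5.33% passed as lower. With progesterone 6 of 25 passed, and the 6 were lower, against 15% of all probes and 7.79% as lower. The median difference of the 25 Hox genes was -0.12 in controls and -0.08 in progesterone samples (log2), against -0.01 and -0.01 over all probes. Of the 25, 21 were lower in the controls and 18 in the progesterone samples, whether or not they passed. For the 13 genes detected on every array the median was -0.23 and -0.19, with 11 and 9 of 13 lower. Without overlap of the groups, 3 of 25 differed in controls, all lower (16.7% of all probes, 8.54% lower and 8.16% higher), and 6 of 25 in progesterone samples, all lower (19.1% of all probes, 10% lower and 9.05% higher).

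Hoxa5, a gene of the trunk mesenchyme that patterns lung and axial skeleton, had log2 signals of 10.41, 10.27, 9.73 and 9.98 in the controls of 20 min (27n, 26n, 12n and 22ob in this order, as below). In the controls of 2 h it had 9.33, 8.59, 8.71 and 7.52 (6d, 19n, 30o and 15o in this order, as below). Every control of 2 h was below every control of 20 min, and that of 15o was lowest. The difference was -1.56 (SE 0.33, limma adjusted p = 0.0149, n = 4 against 4).

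With progesterone Hoxa5 had 10.36, 10.21, 10.07 and 10.14 at 20 min. At 2 h it had 9.31, 7.86, 8.30 and 8.43, again without overlap. The difference was -1.72 (SE 0.25, limma adjusted p = 0.0016, n = 4 against 4). The control of 15o was the lowest of the controls, but among the progesterone samples the lowest was 19n.

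Hoxc6, which is used in the thorax of the embryo, had 10.62, 11.09, 10.24 and 10.30 in the controls of 20 min and 10.16, 8.80, 9.47 and 8.42 in those of 2 h. The pool 6d was close to the lowest 20 min control, and the groups did not overlap. The difference was -1.35 (SE 0.34, limma adjusted p = 0.034, n = 4 against 4). The progesterone samples had 10.99, 10.97, 10.60 and 10.66 at 20 min and 9.96, 8.76, 9.03 and 9.27 at 2 h, a difference of -1.55 (SE 0.22, limma adjusted p = 0.0015, n = 4 against 4).

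Hoxa7 lies on the far side of Hoxa6 from Hoxa5, and Hoxa6 was detected on 2 arrays. Hoxa7 had 9.49, 9.99, 8.98 and 9.68 in the controls of 20 min and 9.05, 8.29, 8.78 and 7.60 in those of 2 h. Here the groups overlapped, since 6d at 2 h was above 12n at 20 min. The difference was -1.11 (SE 0.31, limma adjusted p = 0.0464, n = 4 against 4). The progesterone samples had 9.77, 9.64, 9.34 and 9.73 at 20 min and 8.88, 8.17, 8.44 and 8.45 at 2 h, which did not overlap and differed by -1.14 (SE 0.15, limma adjusted p = 0.0008, n = 4 against 4).

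Hoxc9, a gene of the lower thorax, had 8.79, 9.24, 8.31 and 8.63 in the controls of 20 min and 8.62, 8.09, 8.35 and 7.23 in those of 2 h, which overlapped. The difference of -0.67 did not pass (SE 0.29, limma adjusted p = 0.18, n = 4 against 4). In the progesterone samples it had 8.74, 8.98, 8.75 and 8.89 at 20 min and 8.39, 7.71, 8.06 and 7.70 at 2 h, without overlap. That difference was -0.88 (SE 0.15, limma adjusted p = 0.0035, n = 4 against 4).

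The other calls were on smaller differences or on genes near background. Hoxd8 differed by -0.36 in the progesterone samples (9.22, 9.27, 8.94 and 9.11 at 20 min against 8.80, 8.72, 8.65 and 8.92 at 2 h, limma adjusted p = 0.022, n = 4 against 4) and by -0.23 in the controls, which did not pass. Hoxd9 differed by -0.41 in the progesterone samples (limma adjusted p = 0.027), where it was detected on 4 of 4 arrays at 20 min and 2 of 4 at 2 h. Hoxa9 had 7.26, 7.16, 7.17 and 7.19 in the controls of 20 min and 6.97, 6.81, 6.98 and 6.85 in those of 2 h. It was at least 1.15-fold higher in the controls of 20 min than in those of 2 h, where it was not detected (limma adjusted p = 0.0187, fitted difference -0.29). This bound takes, for each 2 h array, the higher of the lowest detected signal and the signal of the probe. Hoxa9 lost this call with the pairs as a random block. With progesterone the same probe differed by -0.11 and did not pass, while a second Hoxa9 probe differed by -0.23 and did (limma adjusted p = 0.0329). In the controls that second probe differed by -0.25 and did not pass (limma adjusted p = 0.17).

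**Figure D2:**
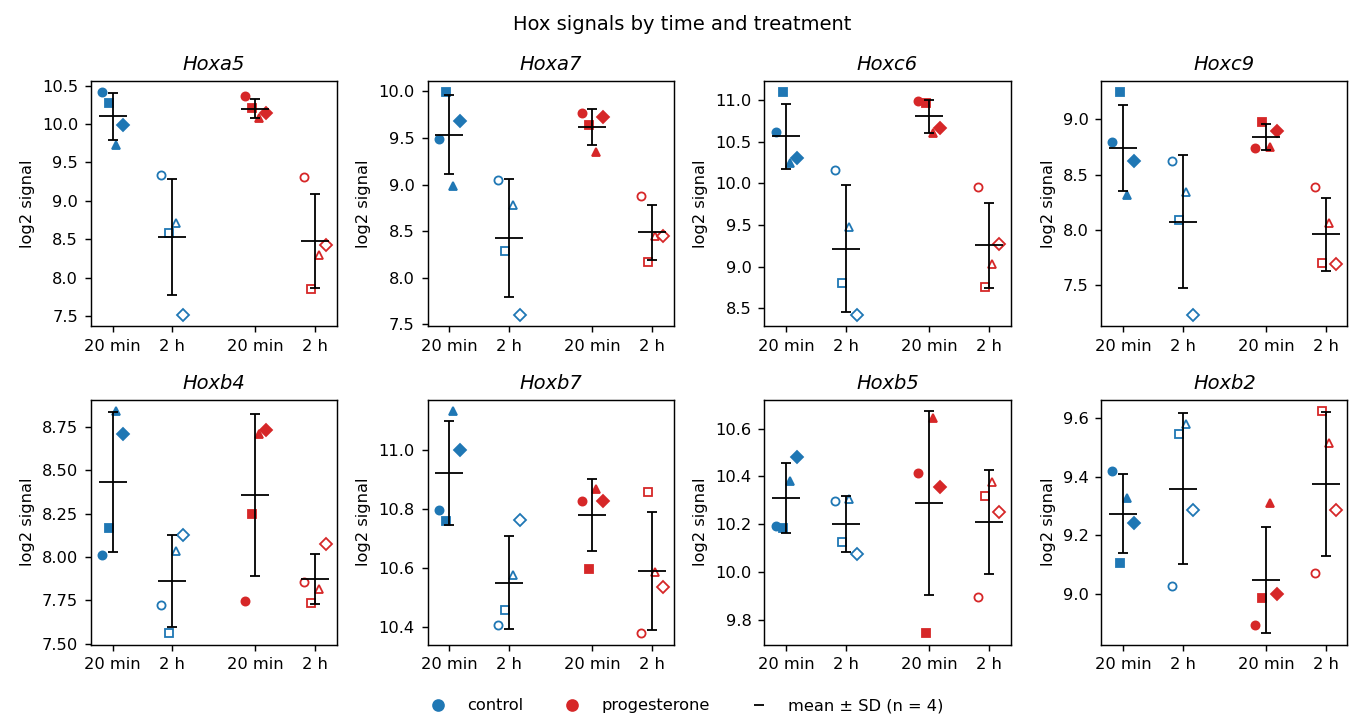
Log2 quantile-normalized signal of 8 Hox genes in each sample (filled symbols 20 min, open symbols 2 h; shapes mark pairs within a time and are reused between times), with mean and SD of 4 samples, controls in blue and progesterone in red. The means of Hoxa5, Hoxa7, Hoxc6 and Hoxc9 are lower at 2 h in both colours, and the times overlap for Hoxb5 and Hoxb2.

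In the main fit, with all samples and with no score or random block, no Hoxb gene passed in either arm. Hoxb2, a gene of the hindbrain in the embryo, had 9.42, 9.11, 9.33 and 9.24 in the controls of 20 min and 9.03, 9.55, 9.58 and 9.29 in those of 2 h, which overlap. The progesterone samples had 8.89, 8.99, 9.31 and 8.999 at 20 min and 9.07, 9.63, 9.52 and 9.29 at 2 h. Its differences were 0.08 and 0.33 (limma adjusted p = 0.12 for the latter). Hoxb5 ranged from 9.74 to 10.65 over the 16 samples and its time difference was -0.11 in the controls and -0.08 in the progesterone samples, with 95% intervals of -0.31 to 0.09 and -0.48 to 0.32. Hoxb6 differed by -0.12 and 0.02. Hoxb7 had a mean of 10.92 ± 0.18 (SD, n = 4) in the controls of 20 min and 10.55 ± 0.16 in those of 2 h, and of 10.78 ± 0.12 and 10.59 ± 0.20 in the progesterone samples. It differed by -0.37 (limma adjusted p = 0.053) and -0.19, and Hoxb4 by -0.57 (limma adjusted p = 0.10) and -0.49 (limma adjusted p = 0.14). Whether a Hoxb gene differed from a Hoxa or Hoxc gene in its change was not tested. In the Hoxd cluster Hoxd3 and Hoxd4 differed by -0.01 and -0.09 in the controls and by -0.04 and 0.03 in the progesterone samples, and Hoxa13 by 0.11 and 0.02. None of these passed. Hoxd3 had group means from 7.18 to 7.25, Hoxd4 from 8.52 to 8.61, and Hoxa13 from 7.24 to 7.35, with SDs of 0.07 to 0.29.

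Leaving out a pair mattered most in the controls. Hoxa5 passed there without any single pair (-1.83 to -1.22), but Hoxc6 and Hoxa7 kept their call without 12n or 6d and lost it without any other pair. The count of Hox genes called in the controls fell to 1 without 27n or 19n and to 2 without 26n, 22ob or 30o. In the progesterone samples Hoxa5, Hoxa7, Hoxc6 and Hoxc9 passed without any single pair, but Hoxd8 and Hoxd9 did not without 27n, 26n, 19n or 30o. Hoxd8 also lost its call with the background correction. Without 6d, 8 genes passed there, with Hoxa2 and, as higher at 2 h, Hoxb2 added to the 6. The calls over all probes in these fits without a pair are not reported here.

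The scale between arrays bears on the counts. Over all probes the controls had 1013 calls as higher and 898 as lower, against 550 and 1548 with each array centred on its median, and the progesterone samples 1212 and 1312 against 752 and 4179. With no normalization, the median of all probes was shifted by -0.17 in the controls and -0.23 in the progesterone samples. Under each of these scales every Hox gene called was lower at 2 h.

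Markers of the stroma and muscle of the tube were read in the same samples. The same score was computed for fibroblasts (5 of 5 markers, Pdgfra, Col1a1, Col3a1, Dcn and Lum, all detected on 16 arrays) and smooth muscle (9 of 10 markers, 8 detected on 16 arrays). The fibroblast score ranged from -0.27 to 0.92 in the controls of 20 min and from -1.54 (15o) to 0.31 (6d) in those of 2 h, and in the progesterone samples from -0.11 to 0.80 and from -0.99 (19n) to 0.40 (6d). The summed fibroblast signals were 12817 to 21281 and 14068 to 20473 in the controls and progesterone samples of 20 min, and 6107 to 14648 and 7524 to 16410 at 2 h. The summed smooth muscle signals were 39182 to 55990 and 41159 to 55764 at 20 min, and 12263 to 55099 and 19761 to 52708 at 2 h. By limma's test, 1 of 5 fibroblast markers (Dcn) and 0 of 9 smooth muscle markers were lower at 2 h in the controls. With progesterone, 2 of 5 (Col1a1 and Dcn) and 1 of 9 (Lmod1) were lower. Over all probes 5.33% and 7.79% passed as lower. Whether or not they passed, 5 of 5 fibroblast and 8 of 9 smooth muscle markers were lower at 2 h in each arm. The median differences were -0.74 in the controls and -0.76 with progesterone for fibroblasts, and -0.47 and -0.58 for smooth muscle. In both arms 3 of 6 secretory markers (Krt8, Krt18 and Cdh1) and 1 of 4 leukocyte markers (Cd68, at 0.61 and 0.80) were higher. Over all probes 6.01% and 7.19% passed as higher. The other secretory markers did not pass, with Ovgp1 (-0.08 and -0.12) and Wfdc2 (-0.36 and -0.13) lower and Pax8 (0.42 and 0.20) higher. Of the ciliated markers, 0 of 7 passed in each arm. Of 4 mesothelium markers, Msln was higher with progesterone (0.48, limma adjusted p = 0.032) and did not pass in the controls (0.45). Other lists also stood apart in the 2 h control of 15o, with a blood score of -0.63 and a mesothelium score of 0.59, against 0.13 to 0.49 and -0.22 to -0.09 in the other 3 controls of 2 h. The part of the blood and mesothelium lists in the Hox differences was not tested. Fewer cells of a type and less RNA per cell cannot be told apart in pooled tissue.

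Some of the Hox genes called had the order of these scores over the samples of a group, and others did not. In the progesterone samples of 2 h, Hoxa5, Hoxa7 and Hoxc6 and both scores had the same order, 6d, 15o, 30o and 19n from high to low. Hoxc9 and Hoxd8, also called there, had other orders, with 15o lowest for Hoxc9 and highest for Hoxd8. In the controls of 2 h, Hoxa5, Hoxa7 and Hoxc6, and Hoxc9, which was not called there, had the order 6d, 30o, 19n and 15o, and both scores differed from it in the order of 19n and 30o alone. Hoxa9, called there, was detected on 0 of 4 controls of 2 h, so its order was not read. Hoxb2 and Hoxb7 were lowest in 6d in the controls and progesterone samples of 2 h, where both scores were highest. These orders are descriptions over 4 samples a group.

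**Figure D3:**
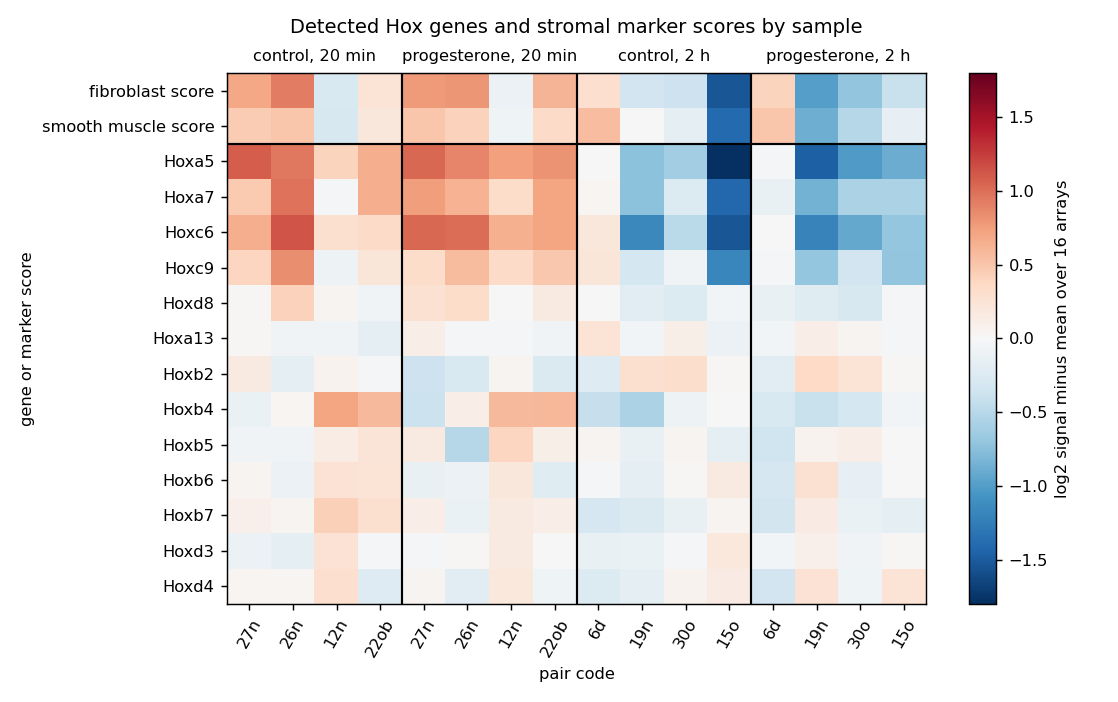
Log2 signal of the 13 Hox genes detected on every array and the fibroblast and smooth muscle scores (rows), each as the difference from its mean over 16 arrays, in each sample (columns, by group and pair code). The lowest values of Hoxa5, Hoxa7, Hoxc6 and Hoxc9 stand in the 2 h control of 15o, where the fibroblast score is -1.54.

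The time comparison was also fitted with a score as a covariate. The scores come from the same arrays, and their medians also differed between times. A call kept or lost in these fits does not tell a change in cell types from one in the genes, which was not tested. With the smooth muscle score, Hoxa5 differed by -1.15 in the controls and -1.21 in the progesterone samples, Hoxa7 by -0.75 and -0.85, and Hoxc6 by -0.98 and -1.09, and these passed (limma adjusted p = 0.0121 or lower). With the fibroblast score, an alternative chosen after the data were seen, Hoxa5 differed by -0.82 and -1.02 (limma adjusted p = 0.0029 and 0.0069). Hoxa7 and Hoxc6 then passed in the progesterone samples (-0.71 and -0.90) and not in the controls (-0.45 and -0.63, limma adjusted p = 0.11 and 0.082). Hoxc9 was at -0.01 in the controls and at -0.57 in the progesterone samples, and passed in neither (limma adjusted p = 0.96 and 0.054). Hoxd8 and Hoxd9, called in the progesterone samples without a score, passed there with neither score. They were at -0.27 and -0.25 with the smooth muscle score and at -0.21 and -0.16 with the fibroblast score (limma adjusted p = 0.097, 0.12, 0.31 and 0.43).

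With the scores in the fit, 2 Hoxb genes were called that had not passed in the main fit. Hoxb7 differed by -0.48 in the controls with the smooth muscle score and by -0.59 with the fibroblast score (limma adjusted p = 0.0025 and 0.0012), and by -0.36 and -0.43 in the progesterone samples (limma adjusted p = 0.025 and 0.037). Hoxb4 differed by -0.74 and -0.91 in the controls (limma adjusted p = 0.014 and 0.0075) and passed in the progesterone samples with neither score. In all, 6 Hox genes were called in the controls with the smooth muscle score and 3 with the fibroblast score, where 2519 and 2156 of all probes were called. In the progesterone samples 5 and 4 were called, of 2385 and 1694 probes. Of the 3 genes called in the controls with the fibroblast score, Hoxa5 alone was among the 4 of the fit without a score. The median of each score was lower at 2 h than at 20 min in both arms, but the ranges overlapped, and the smooth muscle score of the 2 h control of 6d (0.56) was above that of every control of 20 min. The scores themselves were not tested between times.

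The pairs within a time were compared next, to ask whether pools differed in a Hox gene beyond the difference within a pair. At 20 min, 2 of 25 Hox genes passed limma's F test over pairs, Hoxb4 and Hoxc6, against 6.4% of all probes. Hoxb4, a gene used in the hindbrain, neck and blood stem cells, had 8.01 in the control and 7.74 in the progesterone sample of 27n and 8.17 and 8.25 in 26n. It had 8.85 and 8.71 in 12n and 8.71 and 8.73 in 22ob. The last 2 pools stood above the first 2 in both arms, with pair means of 7.88 and 8.21 against 8.78 and 8.72 (limma adjusted p = 0.0028).

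Hoxc6 went the other way, with pair means of 10.80 in 27n and 11.03 in 26n against 10.42 in 12n and 10.48 in 22ob (limma adjusted p = 0.041). In the same F test 4 of 5 fibroblast and 7 of 9 smooth muscle markers passed at 20 min, and the pool 12n had the lowest score of both lists in both arms. Hoxb4 passed in all 9 alternative fits of the pairs, without any single pair among them. Hoxc6 passed in 2 of the 9 and lost its call without 27n, 12n or 22ob.

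At 2 h, 0 of 25 Hox genes passed the F test, against 0.0237% of all probes, while 9 of the 25 had an unadjusted p under 0.05, which is 36% against 17.1% of all probes. At 20 min 12 of the 25 did, 48% against 23.01% of all probes. The smallest were those of Hoxb2 (pair means 9.05, 9.59, 9.55 and 9.29), Hoxc9 (8.50, 7.90, 8.21 and 7.46) and Hoxc6 (10.06, 8.78, 9.25 and 8.84), with limma adjusted p = 0.12, 0.14 and 0.14. Without the pair 15o, 5 genes passed (Hoxa5, Hoxa7, Hoxb2, Hoxc6 and Hoxc9), in a fit that called 540 of all 16848 probes against 4 with the pair. The samples of 15o differed within the pair: progesterone minus control was 0.91 for Hoxa5, 0.85 for Hoxa7, 0.85 for Hoxc6 and 0.46 for Hoxc9, where the fibroblast score differed by 1.14 and the smooth muscle score by 1.25.

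Progesterone was then compared with the control of its pair, which asks whether the hormone changed a Hox gene. At 20 min, 0 of 25 Hox genes were called at an adjusted p of 0.20, against 0% of all probes. The lowest limma adjusted p of a Hox gene was 0.95, paired SAM called 0, and 3 genes (12%) had an unadjusted p under 0.05, against 5.03% of all probes. Hoxb2 was lower in 4 of 4 pairs (-0.53, -0.12, -0.02 and -0.25, mean -0.23, 95% interval -0.41 to -0.04). Hoxb6 was also lower in 4 of 4, at -0.18, -0.01, -0.06 and -0.46 (mean -0.18, interval -0.36 to -0.002). Hoxc6 was higher in 3 of 4 (0.38, -0.13, 0.36 and 0.36, mean 0.24, interval 0.04 to 0.44). These intervals rest on limma's moderated variances, and the SDs of the pair differences were 0.22 (Hoxb2), 0.20 (Hoxb6) and 0.25 (Hoxc6). Of the 25 genes 4 had the same sign in all 4 pairs, against 12.8% of all probes. These were 2 higher (Hoxa13 and Hoxd9), against 6.26%, and 2 lower, against 6.57%.

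At 2 h, 0 of 25 Hox genes were called by limma and 0 by paired SAM, against 0.00594% of all probes, and 0 had an unadjusted p under 0.05 (2.59% of all probes did). The lowest limma adjusted p of a Hox gene was 0.9997. Those with the smallest p were Hoxb3 (mean 0.13, higher in 4 of 4 pairs, interval -0.03 to 0.30), Hoxc8 (-0.10, lower in 3 of 4 pairs, interval -0.27 to 0.07) and Hoxc10 (0.08, higher in 4 of 4 pairs, interval -0.07 to 0.23), 3 genes that were detected on 8, 4 and 8 arrays. Of the 25 genes 2 had the same sign in all 4 pairs, against 10.4% of all probes. Both were higher (5.03% of all probes), and none was lower (5.36%). Each of the 13 genes detected on every array was higher in some pairs and lower in others.

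The intervals are those of limma, which draws the variance of each probe towards that of all probes. They can be narrower or wider than the 4 pairs of a gene alone would give. For Hoxa5 at 2 h the SE was 0.22, where the SD of its pair differences was 0.71, so larger effects are not excluded. Over the 13 genes detected on every array the 95% intervals lay between -0.41 and 0.44 at 20 min and between -0.57 and 0.46 at 2 h. They were widest at 2 h for Hoxa5 (-0.57 to 0.45), whose pairs differed by -0.02 (6d), -0.73 (19n), -0.41 (30o) and 0.91 (15o). In the same pairs the fibroblast score differed by 0.10, -0.65, -0.33 and 1.14. The pairs with the largest differences in Hoxa5 were those with the largest differences in the score, in the same direction. Hoxc9 also differed most in 15o and 19n (0.46 and -0.39). Hoxa7 and Hoxc6 did not, with more in 30o (-0.33 and -0.44) than in 19n (-0.11 and -0.05).

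**Figure D4:**
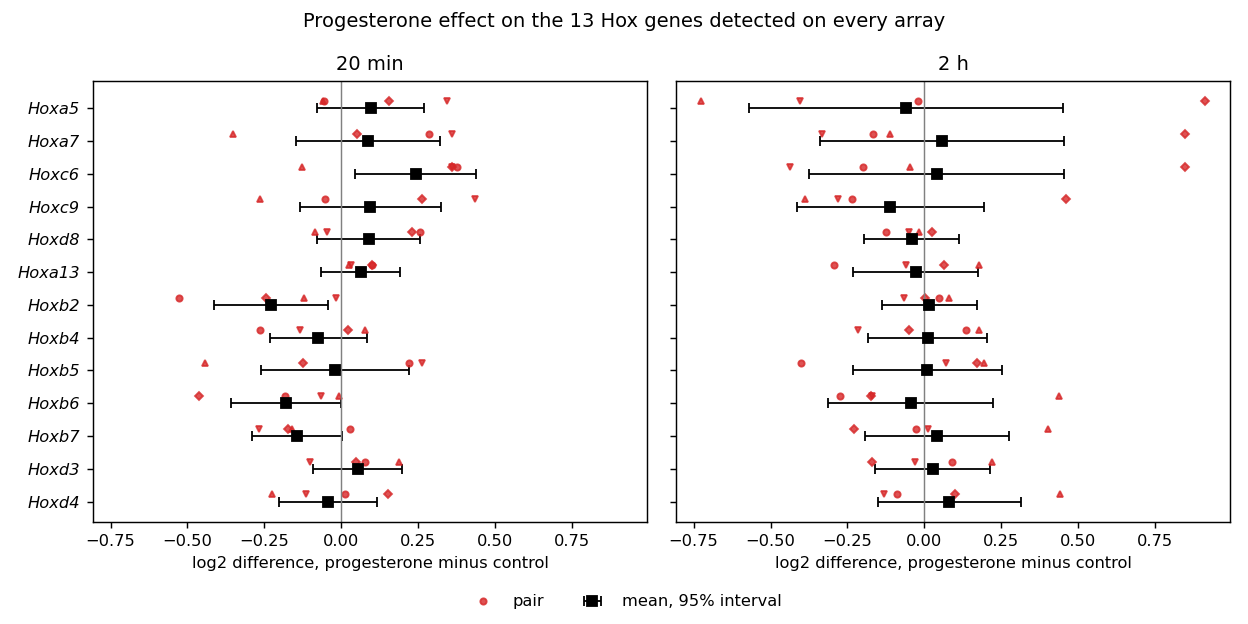
Progesterone minus control (log2) for the 13 Hox genes detected on every array at 20 min and 2 h, with the mean and its 95% interval from limma (black) and each of the 4 pairs (red). At 2 h the pairs of Hoxa5 lie between -0.73 and 0.91, and the interval of each gene includes 0.

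The effect at 2 h against that at 20 min was tested in one fit over all arrays. No Hox gene was called (0 of 25, against 0.00594% of all probes), and 1 had an unadjusted p under 0.05 (4%, against 4.15% of all probes). This was Hoxb2, at 0.24 (95% interval 0.004 to 0.48, limma adjusted p = 0.999). Hoxd9 was at -0.19 and Hoxa9 at 0.18, with intervals that include 0.

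The partners and regulators of Hox genes were read the same way, against the 11.3% of all probes called between times in the controls and 15% in the progesterone samples (5.33% and 7.79% as lower). Of 9 cofactors tested, 1 passed between times, a share near that of all probes. It was Meis1, at -0.51 in the controls (limma adjusted p = 0.030) and at -0.55 in the progesterone samples (limma adjusted p = 0.0014). Pbx2, Pbx4, Meis2, Pknox1 and Pknox2 were also detected on all arrays and did not pass. The median of the 9 was -0.04 in the controls and -0.10 in the progesterone samples.

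Among 20 Polycomb and trithorax genes tested, 1 was higher and 1 lower in the controls and 2 were higher and 3 lower in the progesterone samples. This is 2 of 20 and 5 of 20, against 11.3% and 15% of all probes. Phc2, a subunit of the Polycomb repressive complex, was higher by 0.39 and 0.47 (limma adjusted p = 0.037 and 0.0048). Ezh2, the methyltransferase of the other Polycomb complex, was at -0.28 in the controls (limma adjusted p = 0.041). With progesterone, the histone demethylases Kdm6a and Kdm6b went opposite ways, at -0.57 and 0.87 (limma adjusted p = 0.014 and 0.018), and the trithorax-complex genes Rbbp5 and Men1 were at -0.30 and -0.29 (limma adjusted p = 0.027 and 0.045).

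Among 13 retinoid pathway genes tested, the receptor Rxrb (-0.23) and the retinoic acid hydroxylase Cyp26a1 (-0.36) were lower in the controls (limma adjusted p = 0.044 and 0.049) and 0 of 13 passed in the progesterone samples, against 5.33% and 7.79% of all probes as lower. Of 13 genes tested that pattern the Müllerian duct, 4 were called as lower at 2 h in each arm, against the same 5.33% and 7.79%. The Wnt ligand Wnt5a was at -1.01 and -1.22 in the controls and progesterone samples (limma adjusted p = 0.0078 and 0.0011), and the Hedgehog ligand Ihh at -1.002 and -0.76 (limma adjusted p = 0.00011 and 0.0018). The homeobox gene Msx1 was at -0.64 and -0.53 and the orphan receptor gene Nr2f2 at -0.59 and -0.50.

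The genes that flank the clusters gave a local comparison. Of 15 tested, Cbx5 and Smug1, on the flank of Hoxc, were lower at 2 h in the controls (-0.43 and -0.31, limma adjusted p = 0.021 and 0.026), and Cbx5 in the progesterone samples (-0.44, limma adjusted p = 0.0096). Over all probes, 5.33% passed as lower in the controls and 7.79% in the progesterone samples. The median of the 15 was -0.003 in the controls and -0.01 in the progesterone samples. Beside Hoxa, Skap2 and Hibadh differed by 0.11 and -0.09 in the controls and did not pass. Progesterone called 0 genes of these 5 lists at 20 min and 0 at 2 h. At 20 min the F test over pairs called Wnt5a, Tcf21 and Pax8 of the Müllerian list and Kdm6a of the Polycomb and trithorax list (limma adjusted p = 0.0085, 0.012, 0.015 and 0.024). It called 6.4% of all probes.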

How the data were processed

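RNA of 16 pools of mouse fallopian tubes was measured on Illumina MouseRef-8 v2 BeadChips. The authors deposited signal intensity values per probe and array, summarized from the beads and not yet normalized, and a detection p-value, whose steps give 798 negative controls an array. No genome build is given in the sources used here for the probes. Arrays have no read depth, so the number of arrays limits the precision.

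The intensities were quantile-normalized over 16 arrays without background correction and converted to log2 (limma 3.58.1, R 4.3.3, data.table version 1.17.8). Probes with a detection p under 0.5 on at least 13 arrays were kept (16848). limma's lmFit and eBayes gave the comparisons, with the pair as a block for progesterone and for the contrast between times, and an F test over pairs. P-values were adjusted by Benjamini-Hochberg over all kept probes, two-sided, and called at 0.20 for progesterone, after the 20% false discovery level of the study, and 0.05 otherwise. The study used paired SAM, which is an alternative here, recoded here from every flip of the signs of 4 pairs. The other alternatives were other scalings, a normexp background correction with an offset of 16, other filters and probes, leaving out each pair, no pair block, marker scores as covariates and a random block. The fits were tested on simulated data.

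The pairs come from the codes in the labels and from the paired test of the study. Deviations from the group means correlated at 0.45 on average for the same code at 20 min (0.35 to 0.55) and at 0.29 at 2 h (0.0005 to 0.65), against -0.15 and -0.10 for different codes. Nothing in the labels gives the BeadChip or position of a sample. The methods give both 1 tube of each mouse to each arm and 6 tubes of 3 animals to a sample, which cannot both hold for samples of 1 arm.

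The named genes are the Hox genes, those detected on 16 arrays with their values, the genes called in a comparison or, where no gene was called, the 3 of lowest p, and of the other lists the members called, at most 5 a list. Further genes are named by their place beside these. A few members of the lists are not reported here. Members and lists were chosen with earlier results of these data known. No column of per-sample values was left without a sample.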

Additional observations from a re-analysis of the deposited data

Results flagged for a closer look

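The progesterone sample of 26n at 20 min had the lowest Hoxb7 signal of its group, 10.60, where the other 3 lay between 10.83 and 10.87. Its gap to the nearest sample was large against the range of the group. This was 1 of 68 groups of 4 samples looked at (17 features in 4 groups), where chance flags about 3.4.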

How the results depend on the processing

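For progesterone, the count of Hox genes called was 0 at 20 min, at 2 h and in the contrast between times under every alternative, paired SAM and the fit with no replicate block among them, and removing the block changed no call. In the controls of 2 h against 20 min the count lay between 1 and 4 when a pair was left out, and in the F test over pairs between 1 and 4 at 20 min and between 0 and 5 at 2 h. The count of Hox genes lower at 2 h in the progesterone samples rose from 6 to 9 with median centring. It rose to 12 with no normalization, which leaves in the shift of all probes. Over all probes, calls as lower rose from 1312 to 4179 and 6268 in the same fits. Between pairs of 20 min, 1 gene (Hoxb4) remained of 2 with median centring, with the normexp correction and with no filter. Read as detection on at least 8 of 16 arrays, 20 genes counted as detected instead of 13. With no filter, Hoxc4 was called in the controls and Hoxa7 and Hoxc6 were not. With the pairs as a random block, Hoxb7 was called in the controls in place of Hoxa9. No gene called between times or for progesterone, or among the 3 of lowest p where none was called, turned its direction under these alternatives. The 4 pools a group limit the precision. Signals near the negative controls compress differences.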
